A study of Mus musculus with 24 samples.

Results

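The genes described here are 10 genes of MHC class I antigen presentation and of the immunoproteasome. They comprise the classical class I heavy chains H2-K1 and H2-D1, the light chain B2m, the peptide transporter subunits Tap1 and Tap2, the loading factor Tapbp (tapasin), the immunoproteasome subunits Psmb8, Psmb9 and Psmb10, and the transcriptional coactivator Nlrc5. They were chosen by symbol, as the rows on a numbered chromosome whose symbol equals one of these names, and all 10 were found among the 47372 genes of the deposited tables. Each passed the filter on low values in every comparison. Their RNA was measured by sequencing in cultured marrow-derived macrophages from 6 mice, C57BL/6J by strain and 8 to 12 weeks old. Of these mice, 3 were LXR positive and 3 were double knockouts (DKO) that lack both LXRα and LXRβ, the liver X receptors, which are nuclear receptors for cholesterol derivatives. Cells of each mouse were treated in 4 ways, which gives 8 groups of 3 libraries and 24 libraries in all. By its title, the study asked which expression depends on LXR.

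Marrow cells of all groups were grown in DMEM with 20% FBS and 30% medium conditioned by L929 cells, and the medium was renewed after 4 days. The treatments of both genotypes were vehicle, KLA (Kdo2-lipid A, the lipopolysaccharide part that activates TLR4) at 100 ng/ml, GW3965 (a synthetic LXR agonist) at 1 µM, and acetylated LDL (AcLDL, which loads macrophages with cholesterol) at 50 µg/ml. Vehicle, KLA and GW3965 were given on day 5 for 17 hours. How long AcLDL was given, and whether the vehicle cells match it, the sources used here do not say. The labels name no littermate controls and no deleted exons.

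Class I molecules carry peptides from inside the cell to its surface, where CD8 T cells read them. Proteasomes cut proteins into peptides, and cells exposed to interferon or inflammatory signals replace the standard catalytic subunits Psmb5, Psmb6 and Psmb7 with the immunosubunits Psmb8, Psmb9 and Psmb10, in that order, in newly built proteasomes. The TAP transporter moves peptides into the endoplasmic reticulum, and tapasin holds the empty class I molecule beside TAP until a peptide fits. NLRC5, which does not itself bind DNA, raises transcription of class I heavy chains and some of their partners through X and Y boxes in their promoters.

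Normalized counts are the authors' gene counts divided by a size factor of each library. LXR-positive libraries held 6448579 to 8793205 reads with GW3965, 8280899 to 8723714 with AcLDL, 8856391 to 10179626 with KLA and 10540385 to 17348717 with vehicle. DKO libraries were deeper: 9705391 to 17671480 reads with GW3965, 15263971 to 18739975 with AcLDL, 14084070 to 21644900 with KLA and 20659071 to 27189081 with vehicle. Nr1h2, which encodes LXRβ, lay between 438 and 821 normalized counts in the 12 LXR-positive and between 275 and 399 in the 12 DKO libraries. Nr1h3, which encodes LXRα, overlapped (114 to 1267 and 123 to 751). Whole-gene totals do not check a deletion whose exons are not known. The macrophage markers Lyz2, Adgre1 and Csf1r were abundant in every library, with lowest values of 81053, 11224 and 16468 normalized counts. Itgam (median 27.3, at most 165) and Marco (median 50.1, at most 5267) were low in most libraries. Each was above 0 in 23 of the 24 libraries. Summed over 8 macrophage markers, levels with vehicle were 199385 to 275523 in LXR-positive and 155686 to 187541 in DKO libraries. In bulk RNA, fewer cells of a type and less RNA per cell cannot be told apart.

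The genes sit in few places of the GRCm38 genome. On chromosome 17, within the major histocompatibility complex, lie H2-K1 (33996017 to 34000347, minus strand), Tapbp (33915899 to 33929292), Psmb9 (34181987 to 34187764, minus strand), Tap1 (34187553 to 34197225), Psmb8 (34197721 to 34201454), Tap2 (34203527 to 34216321) and H2-D1 (35262730 to 35267499). Psmb10 (105935735 to 105938444, minus strand) and Nlrc5 (94434356 to 94527272) lie on chromosome 8, and B2m lies on chromosome 2 (122147686 to 122153083). Tap1 and Psmb9 start beside each other on opposite strands and share 212 exon bases. Whether the authors counted by strand is not stated, and reads from those bases cannot be assigned with certainty. The same holds for 533 exon bases that Tap2 shares with Gm15821 and 78 that Nlrc5 shares with 9330175E14Rik. Of the 50-base stretches of their transcripts, 9.63% for H2-K1, 12.8% for H2-D1 and 2.87% for Tapbp also occur in transcripts of other genes, against at most 0.655% for the other 7 genes. On the opposite strand the shares were 21.1% for Tapbp, 11.8% for Psmb8, 11.6% for Tap2, 4.19% for Psmb9, 3.33% for Tap1 and at most 1.97% for the other 5 genes.

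Upstream sequence is shown for the class I chains because H2-K1 and B2m rose with KLA and H2-D1 did not pass the test. All 3 carry the same kinds of short motif. RefSeq (GRCm38.p6) gave promoter entries for 8 of the 10 genes. The stretch before the start site of H2-K1 is chr17:34000348-34000597 (minus strand), and that of B2m is chr2:122147437-122147685 (plus strand). Capitals mark the matches to GAANNGAAA or to GAAA, any 2 bases and GAAA (forms of the element bound by interferon regulatory factors), the NF-kB consensus, TGACG (in class I promoters the core of an X box) and ATTGG (the CCAAT motif of the Y box, read from the other strand).
H2-K1 upstream: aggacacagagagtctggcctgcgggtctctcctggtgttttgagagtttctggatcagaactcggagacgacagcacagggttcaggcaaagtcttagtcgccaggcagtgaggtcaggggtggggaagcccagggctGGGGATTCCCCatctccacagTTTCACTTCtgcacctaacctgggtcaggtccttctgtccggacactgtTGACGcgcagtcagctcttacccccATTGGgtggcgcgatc
B2m upstream: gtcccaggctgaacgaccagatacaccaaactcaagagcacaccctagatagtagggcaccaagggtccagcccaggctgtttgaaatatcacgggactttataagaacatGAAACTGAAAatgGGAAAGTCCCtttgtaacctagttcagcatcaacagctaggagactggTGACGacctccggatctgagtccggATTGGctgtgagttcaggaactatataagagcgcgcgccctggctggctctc
In H2-K1 the NF-kB matches run from base -111 to -101 and the GAANNGAAA match from -90 to -82, counted back from the RefSeq start site. In B2m the order is turned round, with the paired GAAA from base -139 to -130 and the NF-kB match from -126 to -117.

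H2-D1 carries nearly the same paired element as H2-K1, and the 2 are set beside that of B2m because H2-D1 and H2-K1 parted in their KLA response. The H2-K1 element is chr17:34000429-34000458 (minus strand), that of H2-D1 is chr17:35262923-35262952, and that of B2m is chr2:122147548-122147570.
H2-K1 element: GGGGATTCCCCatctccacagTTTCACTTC
H2-D1 element: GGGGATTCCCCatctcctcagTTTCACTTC
B2m element: GAAACTGAAAatgGGAAAGTCCC
Counted from the first base of the H2-K1 element, the H2-D1 element differs in 1 of 30 bases (A18T). Over 190 aligned bases upstream of their start sites, H2-K1 and H2-D1 were identical at 166 (87.4%). The H2-D1 element lies within an exon of a longer transcript model of that gene, so no more of it is shown.

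Both strands of the 250 bases before each start site were searched. GAANNGAAA was found in 2 of the 8 genes (H2-K1 and H2-D1) and in 6.31% of 32851 promoters, and the paired GAAA with 2 bases between, a different spacing, in 1 (B2m) and 2.98%. The NF-kB consensus was in 3 (H2-K1, H2-D1 and B2m) and 3.90%, TGACG in 5 and 17.8%, and ATTGG in 6 and 33.8%. Tap1 and Psmb9 both held TGACG and ATTGG, Tapbp held ATTGG alone, and Psmb8 and Psmb10 held no match in this window. An exact copy of the repeat that LXR-RXR dimers bind (AGGTCA, any 4 bases, AGGTCA) was in 0 of the 8 and 0.0152% of all promoters. At so low a share, its absence from the 8 tells nothing about LXR binding. A match is a match of letters, not a shown binding site.

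Per kilobase of exon, levels in LXR-positive vehicle cells spanned from B2m to Psmb9. B2m stood at 27607 ± 1976 (SD, n = 3) normalized counts per kilobase, H2-D1 at 6715 ± 516, H2-K1 at 2004 ± 105 and Tapbp at 1057 ± 197. These 4 did not overlap with each other or with the rest. Nlrc5 (169 ± 21.4), Tap1 (164 ± 17.6), Psmb8 (161 ± 17.6) and Psmb10 (137 ± 15.9) followed. Nlrc5, Tap1 and Psmb8 overlapped with each other, and Psmb10 overlapped with Nlrc5 and Psmb8 but not with Tap1. Tap2 (91.3 ± 18.3) and Psmb9 (53.1 ± 6.66) were lowest and overlapped with no other of the 10. With KLA in LXR-positive cells the order of B2m, H2-D1, H2-K1 and Tapbp was the same, and Psmb8 (483), Tap1 (406) and Psmb10 (321) stood above Nlrc5 (274).

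**Figure D1:**
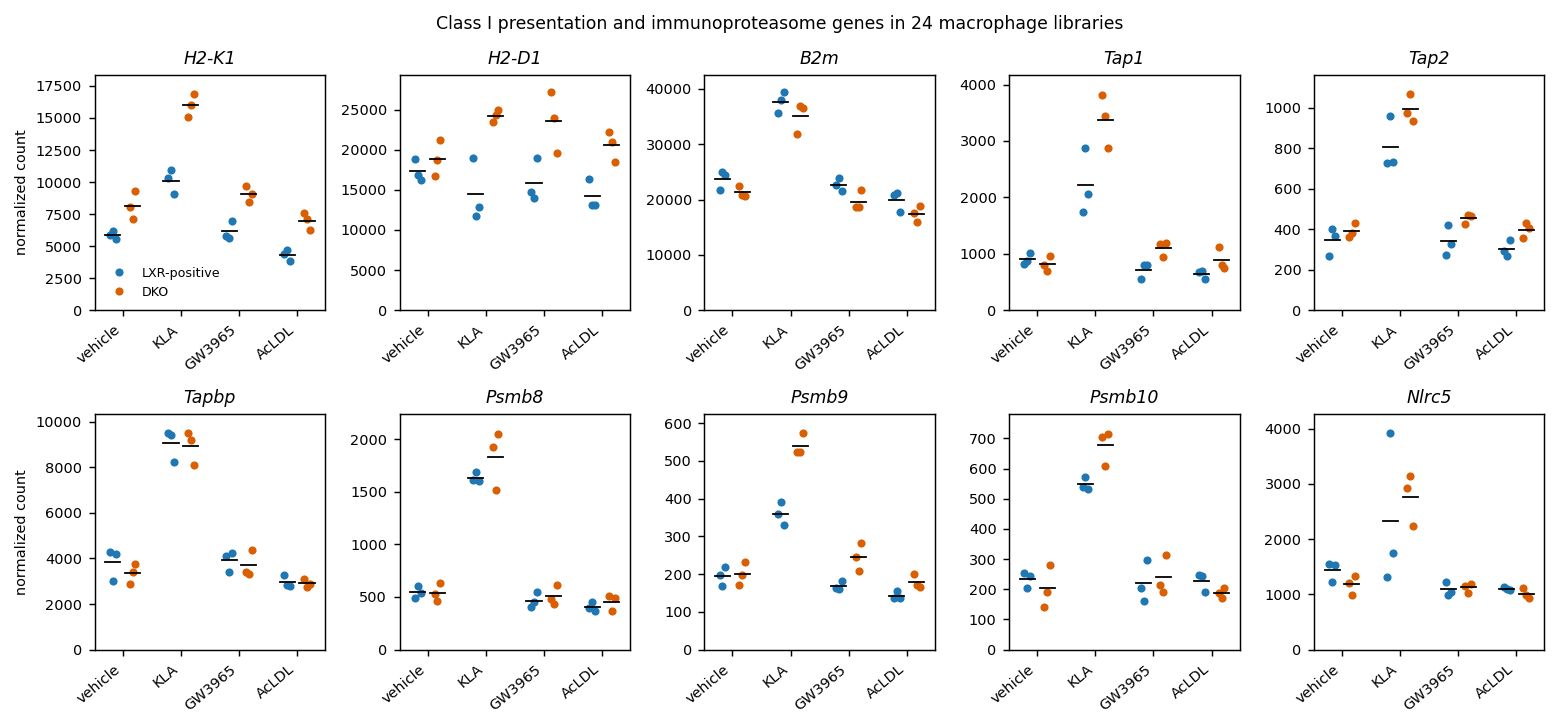
Normalized counts (vertical axes, starting at 0) of the 10 genes in 24 libraries, by treatment and genotype. Each point is 1 library and each bar a group mean; 8 of the 10 genes show KLA libraries above all vehicle libraries in LXR-positive cells and 10 of 10 in DKO cells.

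KLA raised 8 of the 10 genes in LXR-positive macrophages and 9 of 10 in DKO macrophages, and lowered none (limma, adjusted p under 0.05). Of all 15957 genes tested, 16.2% were called higher and 12.4% lower in LXR-positive cells, and 14.0% higher and 11.1% lower in DKO cells. The median log2 fold change of the 10 genes was 1.06 in LXR-positive cells, where the median of all genes was -0.0028, and 1.38 in DKO cells (all genes -0.0038). The 3 immunosubunits, both TAP subunits and tapasin rose in both genotypes, from 1.86-fold to 4.12-fold. Of the class I chains, H2-K1 and B2m rose by less than 2-fold in both genotypes, and H2-D1 did not pass the test in either. Libraries of KLA and vehicle did not overlap for 8 genes in LXR-positive cells (higher; 21.6% of all genes) and for 10 in DKO cells (23.6%). Within a genotype the KLA, GW3965 and AcLDL comparisons share their vehicle libraries, so their values are only set side by side.

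H2-K1, a classical heavy chain, rose in both genotypes. LXR-positive libraries 1, 2 and 3 held 5869, 6209 and 5590.1 normalized counts with vehicle and 10282, 10912 and 9097 with KLA. DKO libraries held 8043, 7141 and 9332 with vehicle and 15102, 16029.8 and 16863 with KLA. KLA libraries lay above vehicle libraries in each genotype, and DKO libraries above LXR-positive ones in each treatment. The highest DKO vehicle library (9332) exceeded the lowest LXR-positive KLA library (9097). The log2 fold change with KLA was 0.77 ± 0.12 SE in LXR-positive cells (limma adjusted p = 0.000377) and 0.98 ± 0.12 in DKO cells (7.9e-05).

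H2-D1, the other classical heavy chain, did not follow H2-K1. Its LXR-positive libraries held 18817, 16860.1 and 16274 normalized counts with vehicle and 18915, 11785 and 12828 with KLA. The KLA library of mouse 1 lay above all vehicle libraries and those of mice 2 and 3 below them. In DKO cells the libraries held 16771, 18653 and 21264 with vehicle and 23436, 24357 and 24907 with KLA, without overlap. The log2 fold change was -0.28 ± 0.16 SE in LXR-positive cells (limma adjusted p = 0.22) and 0.37 ± 0.16 in DKO cells (0.13). Without the KLA library of mouse 1, the LXR-positive change was -0.49 and passed as lower (adjusted p = 0.016), as it did with quantile normalization of all libraries (-0.45, adjusted p = 0.049). H2-D1 shares 12.8% of its 50-base stretches with other genes, and H2-Q1 is the single gene that shares most of them (5.87%).

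Because reads may have been divided between close copies, sums were taken over class I genes. H2-K1 and H2-D1 together held 23206 ± 1415 (SD, n = 3) normalized counts with vehicle and 24606 ± 3994 with KLA in LXR-positive cells. In DKO cells they held 27068 ± 3094 and 40231 ± 1622. Over all 21 class I and class I-like H2 rows the sums were 28553 ± 1509 and 36319 ± 4081 in LXR-positive cells and 33518 ± 3381 and 57428 ± 1025 in DKO cells. The DKO KLA sums (56267 to 58208) lay above every other library's.

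B2m, the invariant light chain, rose in both genotypes. In LXR-positive cells its libraries held 21798, 24944 and 24485 normalized counts with vehicle and 35553, 38055 and 39368 with KLA. In DKO cells they held 22448, 20822 and 20702.5 with vehicle and 31772, 36896 and 36478 with KLA. All KLA libraries lay above all vehicle libraries, and the genotypes overlapped in each treatment. The log2 fold changes were 0.67 ± 0.11 SE (limma adjusted p = 0.0007) and 0.71 ± 0.11 (0.000499).

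Tap1, the TAP subunit encoded beside Psmb9, had the largest DKO response of the 10. LXR-positive libraries held 827, 865 and 1009 normalized counts with vehicle and 1738, 2883 and 2052 with KLA. DKO libraries held 811, 688 and 964 with vehicle and 3815, 3439 and 2867 with KLA. The KLA libraries of the genotypes overlapped at mouse 2 of the LXR-positive group (2883) and mouse 3 of the DKO group (2867). The rise was 2.42-fold in LXR-positive cells (log2 1.28 ± 0.19 SE, limma adjusted p = 0.00032) and 4.12-fold in DKO cells (2.04 ± 0.19, 1.0e-05).

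Tap2, the partner subunit, held 268, 400.0 and 368 normalized counts with vehicle and 727, 959.9 and 732 with KLA in LXR-positive cells. In DKO cells it held 361, 382 and 434 with vehicle and 974, 1069.8 and 935 with KLA. Vehicle and KLA libraries were apart in both genotypes (log2 fold changes 1.23 ± 0.16 SE, limma adjusted p = 0.000146, and 1.34 ± 0.16, 8.6e-05). Tapbp held 4304, 3015 and 4189.9 normalized counts with vehicle and 9494, 9403 and 8247 with KLA in LXR-positive cells. Its DKO libraries held 2898.5, 3415 and 3742 with vehicle and 9519, 9219 and 8082 with KLA. The KLA ranges of the genotypes were nearly the same for Tapbp, and its log2 fold changes were 1.25 ± 0.15 (6.7e-05) and 1.42 ± 0.15 (2.8e-05).

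Psmb8, the immunosubunit that takes the place of Psmb5, had the largest LXR-positive response of the 10. LXR-positive libraries held 487, 605 and 539 normalized counts with vehicle and 1609, 1688 and 1603 with KLA. DKO libraries held 529, 458 and 635 with vehicle and 1924, 1515 and 2049 with KLA. The rise was 3.01-fold (log2 1.59 ± 0.14 SE, limma adjusted p = 1.0e-05) and 3.38-fold (1.76 ± 0.14, 4.9e-06), and the genotypes overlapped in both treatments.

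Psmb9, which takes the place of Psmb6, held 196, 169 and 217 normalized counts with vehicle and 359, 391 and 331 with KLA in LXR-positive cells. In DKO cells it held 171, 199 and 231 with vehicle and 523, 524 and 573 with KLA. All DKO KLA libraries lay above all LXR-positive KLA libraries, while the vehicle libraries overlapped. The log2 fold changes were 0.89 ± 0.14 SE (limma adjusted p = 0.000553) and 1.44 ± 0.14 (1.8e-05).

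Psmb10, which takes the place of Psmb7, held 253, 203 and 246 normalized counts with vehicle and 540.1, 572 and 531 with KLA in LXR-positive cells. DKO libraries held 141, 191 and 279.5 with vehicle and 705, 610.3 and 716 with KLA. The DKO KLA libraries again lay above the LXR-positive ones, and the DKO vehicle libraries were widely spread. The log2 fold changes were 1.23 ± 0.20 SE (limma adjusted p = 0.000715) and 1.78 ± 0.20 (5.3e-05).

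Nlrc5, the class I transactivator, was the least even of the 10 with KLA. LXR-positive libraries held 1547, 1225 and 1531 normalized counts with vehicle and 1307, 3916 and 1747 with KLA. DKO libraries held 1207, 996 and 1332 with vehicle and 2929, 3145 and 2234 with KLA. The KLA library of LXR-positive mouse 1 lay within the vehicle range and that of mouse 2 above every other library. The log2 fold change was 0.54 ± 0.31 SE in LXR-positive cells (limma adjusted p = 0.22) and 1.23 ± 0.31 in DKO cells (0.0128). Without the KLA library of mouse 1 the LXR-positive change was 0.87 and passed (0.044), so that all 10 genes were called there, 9 higher and H2-D1 lower. Without DKO vehicle library 2 the DKO call of Nlrc5 ended (adjusted p = 0.0503).

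**Figure D2:**
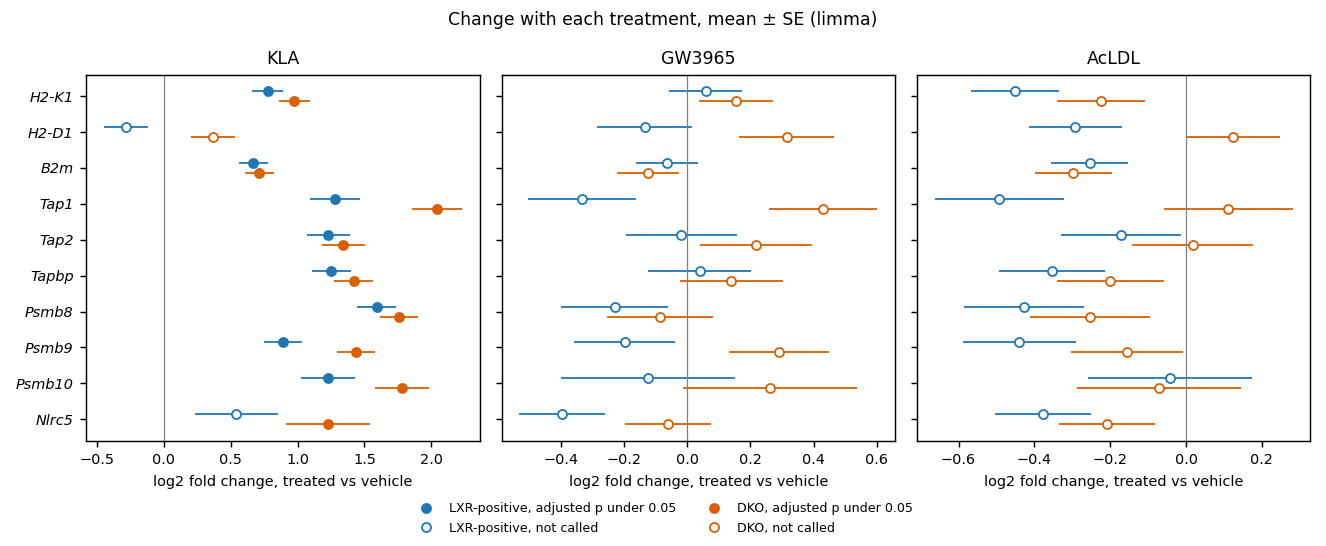
Log2 fold change against vehicle (horizontal axis; bars are ± SE from limma) of the 10 genes with KLA, GW3965 and AcLDL in LXR-positive and DKO cells; filled points passed an adjusted p of 0.05. Filled points appear with KLA only, for 8 genes in LXR-positive and 9 in DKO cells.

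The rest of the class I pathway was followed in lists of related genes. Beside the KLA counts of each list stand the shares of all genes. These were 16.2% called higher and 12.4% lower in LXR-positive cells, and 14.0% and 11.1% in DKO cells. Of the other class I and class I-like heavy chains, 15 of 18 were tested, and KLA raised 9 and lowered 1 in LXR-positive cells and raised 10 and lowered 1 in DKO cells (medians 0.69 and 1.32, limma). H2-M2 (log2 fold change 3.21 ± 0.43 SE in LXR-positive cells), H2-Q7 (2.59 ± 0.30), H2-Q6 (2.46 ± 0.42), H2-T22 (2.06 ± 0.17) and H2-T24 (1.49 ± 0.20) rose. The gene that fell in both was Fcgrt, the heavy chain of the neonatal Fc receptor, which binds antibodies and albumin and presents no peptide (-2.48 ± 0.18 and -1.94 ± 0.18). Fcgrt libraries held 1318, 1378 and 1221 normalized counts with vehicle and 232, 222 and 247 with KLA in LXR-positive cells. H2-Q and H2-T genes are close copies, so the division of reads between them is uncertain.

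Proteasome genes beyond the immunosubunits also rose with KLA. The standard catalytic subunits Psmb5 (log2 fold change 1.5 ± 0.14 SE), Psmb7 (1.07 ± 0.16) and Psmb6 (0.93 ± 0.14) rose in LXR-positive cells, 3 of 3, and 3 of 3 in DKO cells (1.49, 1.07 and 0.71). All 11 other 20S core subunits rose in both genotypes in limma, with medians of 0.83 and 0.78. Psma6 (1.68 ± 0.17), Psma5 (1.30 ± 0.20), Psmb3 (1.11 ± 0.16), Psma3 (0.93 ± 0.21), Psmb2 (0.88 ± 0.15) and Psma7 (0.83 ± 0.19) had the largest changes in LXR-positive cells. Psma3 lost its DKO call (0.70 ± 0.21) without any of 5 of the 6 libraries compared. Of 9 genes of the PA28 activator and of proteasome assembly, 6 rose in LXR-positive and 4 in DKO cells (medians 0.72 and 0.51). Psme2, a PA28 subunit, rose most (1.90 ± 0.25 and 2.05 ± 0.25), its partner Psme1 rose by 0.82 ± 0.19 and 1.10 ± 0.19, and Pomp, the chaperone of 20S assembly, by 0.90 ± 0.12 and 0.86 ± 0.12. Psme3 (0.72 ± 0.11) was called in both genotypes, and Psmg1 (0.73 ± 0.19) and Psmg3 (0.70 ± 0.21) in LXR-positive cells; all 3 lost a call when single settings or libraries were changed.

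Among 9 genes of peptide trimming and loading, KLA raised 6 in LXR-positive and 8 in DKO cells (6 with the mouse as a block), with medians of 0.63 and 0.75. Calr, the lectin chaperone of class I heavy chains, rose by 1.37 ± 0.16 SE on the log2 scale in LXR-positive cells, the chaperone Hspa5 by 1.11 ± 0.16, the trimming peptidase Erap1 by 0.85 ± 0.10 and the disulfide isomerase Pdia3 by 0.76 ± 0.14. Tapbpl, the tapasin relative TAPBPR, rose by 0.63 ± 0.19 and 1.43 ± 0.19 in LXR-positive and DKO cells, and its LXR-positive call ended without any of 5 of the 6 libraries. The peptidase Npepps rose by 0.51 ± 0.11 in LXR-positive cells.

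Of 14 transcription regulators, KLA raised 4 and lowered 1 in LXR-positive cells and raised 4 in DKO cells (limma). Of all genes, 16.2% were called higher and 12.4% lower in LXR-positive cells, and 14.0% and 11.1% in DKO cells. The median log2 fold changes of the 14 were -0.0011 and 0.098, against -0.0028 and -0.0038 for all genes. Stat2, which carries interferon signals, rose in LXR-positive cells by 1.15 ± 0.17 SE on the log2 scale. Nfyc (0.42 ± 0.12) and Irf9 (0.37 ± 0.12) were called higher in LXR-positive cells, and both calls ended in several alternative fits. Irf8, a regulator of myeloid development, fell by 0.84 ± 0.10. Irf1, which binds class I promoters and was singled out after its values were seen, rose in DKO cells (937, 911 and 1577 normalized counts with vehicle, 4507, 3361 and 3361 with KLA; log2 fold change 1.75 ± 0.21). In LXR-positive cells it held 1373, 1002 and 1146 with vehicle and 1444, 1942 and 1764 with KLA (0.55 ± 0.21, adjusted p = 0.074), where it was called with all 24 libraries in the fit (0.0417) and with only the 6 libraries compared (0.0412). Of 6 tested interferon and receptor genes, Ifnar1 (0.97 ± 0.11) and Ifngr2 (0.49 ± 0.16) were called higher in LXR-positive cells and Ifngr1 fell by 1.03 ± 0.18. The call of Ifngr2 ended with no filter, quantile normalization, edgeR or only the 6 libraries compared, and without any of 5 of those libraries (limma adjusted p up to 0.155). Ifng, also singled out later, stood at 22.05, 6.47 and 13.5 normalized counts with KLA in DKO cells and at 1.30, 10.5 and 1.52 in LXR-positive cells. Its vehicle libraries held 0.902 at most, so it passed the filter only through the KLA libraries and its difference is given with no test.

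**Figure D3:**
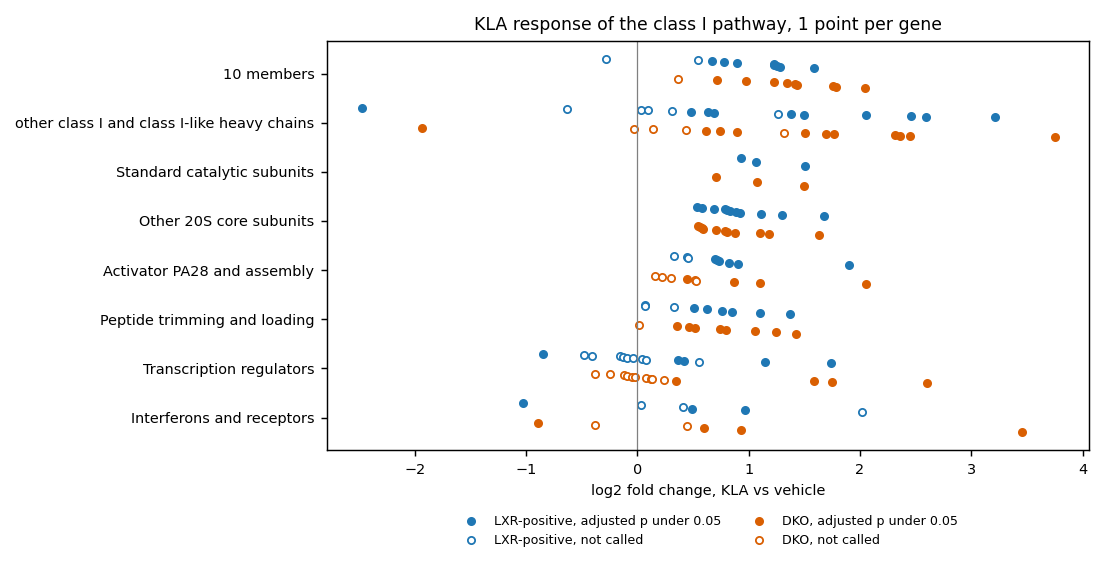
Log2 fold change with KLA against vehicle (horizontal axis) of the 10 genes and of 7 related gene lists (rows), 1 point per gene, in LXR-positive and DKO cells; filled points passed an adjusted p of 0.05 in limma. The 20S core subunits lie above 0 in all 11 cases in both genotypes, and Fcgrt lies at -2.48 and -1.94.

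Since standard and immunosubunits both rose, the ratio of each immunosubunit to the standard subunit it replaces was taken per library. In LXR-positive cells the log2 ratio Psmb8/Psmb5 was 1.71, 1.88 and 1.80 with vehicle and 1.66, 2.01 and 1.997 with KLA. Psmb9/Psmb6 was -1.40, -2.11 and -1.79 with vehicle and -1.71, -1.68 and -2.04 with KLA, and Psmb10/Psmb7 was -0.13, -0.55 and 0.17 with vehicle and -0.27, 0.062 and 0.19 with KLA. The vehicle and KLA libraries overlapped for all 3 ratios in LXR-positive cells. In DKO cells Psmb9/Psmb6 was -1.99, -1.66 and -1.31 with vehicle and -1.06, -0.99 and -0.71 with KLA. Psmb10/Psmb7 was -0.90, -0.67 and -0.22 with vehicle and 0.29, 0.026 and 0.020 with KLA. Both were higher with KLA in each of 3 DKO mice without overlap, by 0.73 and 0.70. Psmb8/Psmb5 was also higher in each of the 3 mice, by 0.26 ± 0.088 (SD of the paired differences), with groups that overlapped.

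With 3 libraries against 3 the exact two-sided permutation test cannot give less than p = 0.10. That value was reached for Psmb9/Psmb6 and Psmb10/Psmb7 with KLA in DKO cells, for Psmb8/Psmb5 with AcLDL in both genotypes (differences -0.33 and -0.42) and for Psmb9/Psmb6 with AcLDL in the LXR-positive group (-0.59). After adjustment across 18 ratio comparisons these p-values were 0.36, so none of the ratio changes passed. Paired by mouse, the exact sign-flip test cannot go below p = 0.25.

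**Figure D4:**
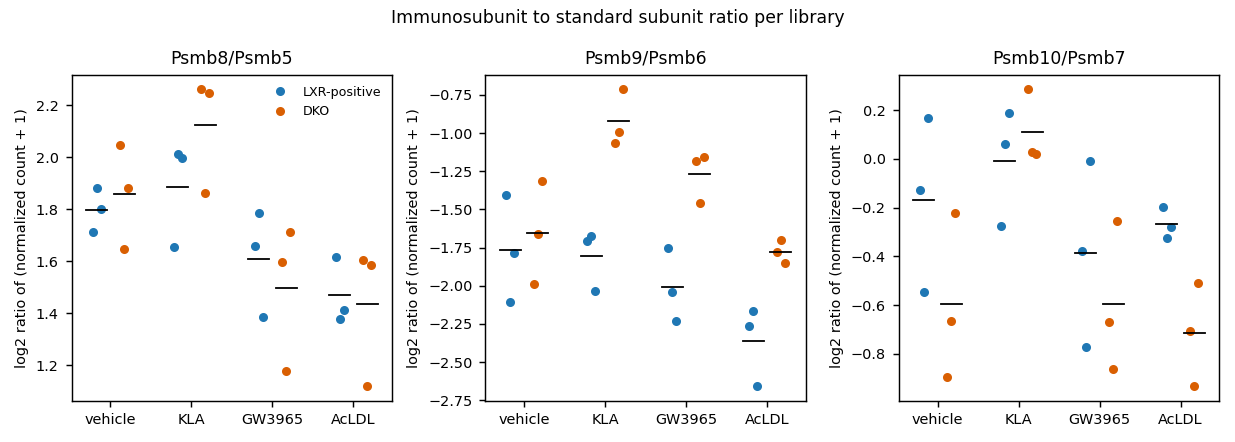
Log2 ratio of normalized counts plus 1 (vertical axes, each with its own range) of immunosubunit to standard subunit in each of 24 libraries; bars are group means. With KLA the DKO libraries of Psmb9/Psmb6 (-1.06 to -0.71) and Psmb10/Psmb7 (0.020 to 0.29) lie above the DKO vehicle libraries.

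The genotypes were compared within each treatment. With vehicle, 0 of the 10 genes passed in limma (0.316% of 16116 genes were called in either direction; 1 of the 10 had an unadjusted p under 0.05, DESeq2 called 1 and edgeR 0). The gene nearest to a call was H2-K1 (log2 difference, DKO minus LXR-positive, 0.47 ± 0.12 SE, adjusted p = 0.16), whose DKO vehicle libraries (7141 to 9332 normalized counts) lay above the LXR-positive ones (5590.1 to 6209). DESeq2 called this difference (0.48, adjusted p = 0.0087), and it called 1.89% of all genes. The other 9 genes differed by -0.29 (Nlrc5) to 0.20 (Tap2), and their vehicle libraries overlapped between genotypes, so 1 of the 10 did not overlap (higher; 7.58% of all genes).

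With KLA, 3 of the 10 genes were higher in DKO than in LXR-positive cells and 0 were lower (3.01% of 15957 genes were called higher and 3.87% lower). H2-D1 differed by 0.77 ± 0.16 SE on the log2 scale (1.71-fold, limma adjusted p = 0.0205), with DKO libraries at 23436 to 24907 and LXR-positive libraries at 11785 to 18915 normalized counts. H2-K1 differed by 0.67 ± 0.12 (1.59-fold, 0.0116) and Psmb9 by 0.58 ± 0.14 (0.0321). Tap1 differed by 0.62 ± 0.19 (adjusted p = 0.0641), Nlrc5 by 0.40 ± 0.31 and Psmb10 by 0.30 ± 0.20, and these did not pass. DESeq2, which called 11.3% of all genes, called Tap1 (adjusted p = 0.0280), as did limma with all 24 libraries in the fit (0.0430). Tapbp (-0.018 ± 0.15) and B2m (-0.11 ± 0.11) had values at or below 0. Groups did not overlap for 4 genes, H2-K1, H2-D1, Psmb9 and Psmb10, all higher in DKO (12.9% of all genes).

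These calls rested on few libraries. Leaving out 1 of the 6 KLA libraries at a time gave 0 to 4 called genes: 2 without LXR-positive mouse 1, 4 without mouse 2 (H2-K1, Psmb9, Tap1 and Nlrc5), 1 without mouse 3, and 1, 0 and 1 without DKO mice 1, 2 and 3. H2-K1 kept its call in 5 of these 6 fits (highest adjusted p = 0.0506), and H2-D1 (0.0763) and Psmb9 (0.101) in 1 each. With reads thinned to equal depth, an alternative added after seeing the data, the differences were 0.68 for H2-K1 (adjusted p = 0.0118), 0.77 for H2-D1 (0.0226) and 0.58 for Psmb9 (0.0583, not called). H2-D1 also lost its call with only the 6 libraries compared (0.0645) and Psmb9 with no filter (0.0502).

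With GW3965, 3 genes were higher in DKO cells and 0 lower (4.2% of 16116 genes were called higher and 5.44% lower). H2-K1 held 5787, 5675 and 7002 normalized counts in LXR-positive and 9674, 8459 and 9049 in DKO libraries (log2 difference 0.56 ± 0.12 SE, limma adjusted p = 0.0146). H2-D1 held 14758, 13944 and 18974 and, in DKO, 27188, 23989 and 19619 (0.57 ± 0.15, 0.037). Tap1 held 559, 802 and 805 and, in DKO, 1178, 935 and 1196 (0.62 ± 0.17, 0.043). None of these 3 overlapped between genotypes, and 5 of the 10 genes did not overlap (higher; 14.5% of all genes). Psmb9 (0.53 ± 0.16, adjusted p = 0.0561) and Tap2 (0.44 ± 0.18, 0.135) were next. DESeq2, which called 13.1% of all genes, called Psmb9 (adjusted p = 0.0430), as did limma with all 24 libraries in the fit (0.0160). Without filtering, or with only the 6 libraries compared, H2-K1 alone was called, and leaving out single libraries gave 0 calls (LXR-positive mice 1 or 2, DKO mouse 1), 1 (DKO mouse 2), 2 (DKO mouse 3) or 3 (LXR-positive mouse 3).

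With AcLDL, the 2 heavy chains were higher in DKO cells and 0 genes were lower (3.76% of 16026 genes were called higher and 4.85% lower). H2-K1 held 4409.8, 4667 and 3868 normalized counts in LXR-positive and 7563, 7125 and 6245 in DKO libraries (0.69 ± 0.12 SE, limma adjusted p = 0.00906). H2-D1 held 16346, 13109.9 and 13129 and, in DKO, 22221, 21006 and 18469 (0.54 ± 0.12, 0.0237). Neither overlapped between genotypes, as for 5 of the 10 genes (15.0% of all genes). Without DKO mouse 2 neither was called (0.0509 and 0.102), and H2-D1 also lost its call without DKO mouse 1 or LXR-positive mice 2 or 3. Thinned reads gave 0.68 (adjusted p = 0.0103) and 0.53 (0.0287). B2m, which pairs with both heavy chains, was lower in DKO by values that did not pass in any treatment (-0.15 with vehicle, -0.11 with KLA, -0.21 with GW3965 and -0.20 with AcLDL).

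**Figure D5:**
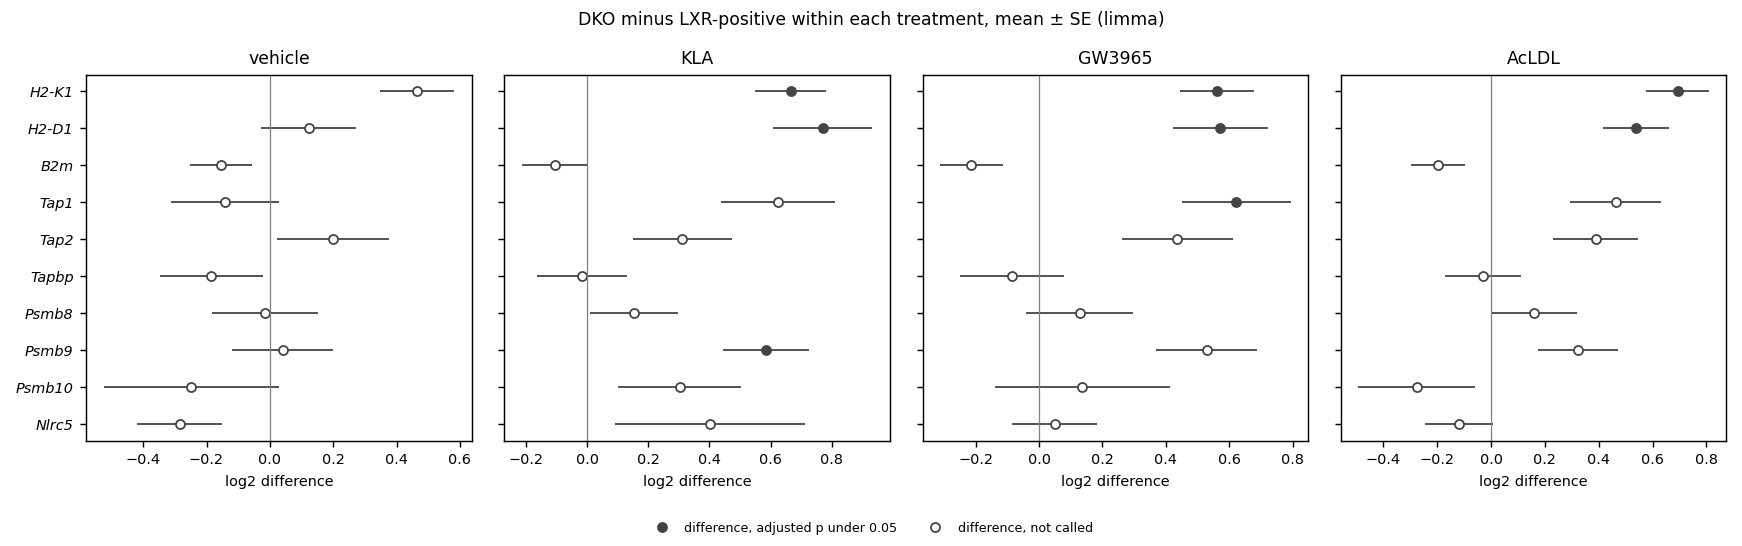
Log2 difference, DKO minus LXR-positive (horizontal axes, each with its own range; bars are ± SE from limma), of the 10 genes with vehicle, KLA, GW3965 and AcLDL; filled points passed an adjusted p of 0.05. H2-K1 lies between 0.47 and 0.69 in all 4 treatments and B2m between -0.21 and -0.11.

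Neutrophil markers were called higher in DKO libraries in 3 of the 4 treatments. The sum over 6 neutrophil markers was 2856 to 3387 normalized counts with vehicle in LXR-positive and 4181 to 5948 in DKO libraries, 1590.4 to 2327 and 2578 to 5786 with KLA, 2694 to 4380.3 and 4863 to 7403 with GW3965, and 2397 to 2693 and 3917 to 5646 with AcLDL. All 5 tested neutrophil markers were positive in each comparison, with 0 called with vehicle, 2 called higher with KLA and 4 each with GW3965 and AcLDL. Of all genes, 3.01%, 4.2% and 3.76% were called higher with KLA, GW3965 and AcLDL, and 0.316% in either direction with vehicle. S100a9 (median 2759) and S100a8 (502) were the most abundant of the 6, and Ly6g reached at most 18.3 normalized counts. Sums over 5 stromal markers were 51.3 to 729 and 197 to 3343 with vehicle, 98.7 to 858 and 174 to 1865 with KLA, 192 to 612 and 1267 to 6701 with GW3965, and 118 to 912 and 207 to 3851 with AcLDL. The stromal sums overlapped between genotypes except with GW3965, and 1 stromal marker was called higher with GW3965 and 0 with vehicle, KLA or AcLDL. Dendritic cell sums over 7 markers were 189 to 491 and 365 to 1068 with vehicle, 149.8 to 175 and 146 to 272 with KLA, 208 to 380.2 and 552 to 1254 with GW3965, and 259.7 to 429 and 515 to 1371 with AcLDL. Itgax ran from 27.3 to 1300 normalized counts, against at most 47.1 for any other of the 7. Where it was lowest, Itgax was not most of the sum. The median differences of the tested markers were -0.12 with GW3965 (1 of 5 called higher) and -0.095 with AcLDL (0 of 4 called). Lymphocyte sums over 8 markers stayed at or below 64.3 normalized counts in every library. They were 17.1 to 27.4 in LXR-positive and 35.01 to 53.2 in DKO libraries with vehicle, and 3.04 to 13.05 and 22.8 to 37.9 with KLA. With GW3965 they were 17.8 to 28.003 and 51.8 to 58.3, and with AcLDL 20.4 to 23.9 and 41.2 to 64.3. These sums were higher in DKO without overlap in each treatment. Of the tested lymphocyte markers, 1 of 1 was called higher with KLA, 1 of 2 with GW3965, 0 of 2 with vehicle and 0 of 1 with AcLDL. With KLA, the markers Ly6g, Cd209a, Ncr1 and Nkg7 were at 0 in all LXR-positive libraries. Macrophage marker sums with KLA were 343641 to 417277 in LXR-positive and 261683 to 298858 in DKO cells. Lyz2 was the most abundant of the 8 (median 165758 normalized counts over the 24 libraries, next Csf1r at 25063). With KLA, 4 of the 8 were higher and 4 lower in DKO cells (median log2 difference 0.12). Of these, 1 was called lower (3.87% of all genes) and 0 higher. The part of these cell types in the differences of H2-K1, H2-D1, Tap1 and Psmb9 was not tested.

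The related lists were compared between genotypes with KLA in the same fit. Of 15 other class I-like genes, 4 were higher and 1 lower in DKO cells (median log2 difference 0.70; over all genes 0.012, with 3.01% called higher and 3.87% lower), among them H2-Q10 (1.18 ± 0.19 SE), Fcgrt (1.15 ± 0.18) and H2-T23 (0.83 ± 0.16), of which H2-Q10 and H2-T23 were singled out after their values were seen. H2-T23 lost its call without DKO KLA library 2 or 3. H2-K1 shares 5.18% of its 50-base stretches with H2-Q10. Irf1 (1.12 ± 0.21) and Irf8 (0.53 ± 0.10) were the 2 of 14 regulators that were higher, and each lost its call without 2 of the 6 libraries. Tapbpl (0.78 ± 0.19) was higher and Npepps lower (-0.48 ± 0.11) among 9 loading genes, and neither kept its call when most single libraries were left out. Of the 3 standard subunits, the 11 other 20S subunits and the 9 PA28 and assembly genes, 0 passed in limma with KLA, with median differences of -0.083, -0.27 and -0.31. With AcLDL 3 of these 11 were called lower in DKO cells (4.85% of all genes), and with GW3965 1 of these 9 (5.44%). In these 3 lists 0 genes were called higher in any treatment. The AcLDL calls of Psma5 and Psma6 ended without any of several single libraries.

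The responses themselves were compared by the interaction, the response of DKO minus that of LXR-positive cells. For KLA the difference was positive in 10 of 10 genes (median 0.37), for GW3965 in 9 and for AcLDL in 8, but 0 of the 10 passed in limma in any of the 3 (3, 2 and 2 had an unadjusted p under 0.05). Of all genes 0.0689%, 0.118% and 0.025% were called, and edgeR and DESeq2 called 0 of the 10 in each. With KLA the largest differences were those of Tap1 (0.76 ± 0.26 SE, unadjusted p = 0.0135, adjusted p = 0.863), Nlrc5 (0.69 ± 0.44), H2-D1 (0.65 ± 0.23), Psmb10 (0.55 ± 0.28) and Psmb9 (0.55 ± 0.20). Those of Tap2 (0.11 ± 0.23), H2-K1 (0.20 ± 0.16) and B2m (0.048 ± 0.15) were smaller. With GW3965 and AcLDL the difference of Tap1 was 0.76 ± 0.24 (adjusted p = 0.841) and 0.60 ± 0.24 (1.0). All 3 interactions share the vehicle libraries, where Tap1 was 0.14 lower in DKO (-0.14 ± 0.17), so their signs are not independent. Nor are the signs of the 10 genes within a treatment, since the levels of most of them were correlated over the libraries. The shares of all genes with a positive difference or an unadjusted p under 0.05 were not taken. Of the 10 genes, none had an adjusted p under 0.05 for these differences in the authors' deposited tables, the lowest being 0.565 with KLA, 0.753 with GW3965 and 1.0 with AcLDL.

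With GW3965 no gene of the 10 passed the test in either genotype. In LXR-positive cells 0 passed in limma (0.267% of 16116 genes were called), 1 had an unadjusted p under 0.05, and edgeR and DESeq2 called 0. The median log2 fold change was -0.13 (all genes -0.016). Nlrc5 held 1547, 1225 and 1531 normalized counts with vehicle and 1220.0, 996 and 1049 with GW3965, lower in each library (-0.39 ± 0.14 SE, adjusted p = 0.61). Tap1 was at -0.33 ± 0.17 and Psmb8 at -0.23 ± 0.17, while H2-K1 was at 0.058 ± 0.12. In DKO cells 0 passed as well (0.00621% of genes called; 1 at an unadjusted p under 0.05, 0 in edgeR and DESeq2), with a median of 0.19 and Tap1 highest at 0.43 ± 0.17. The 7 other lists of the pathway also gave 0 calls with GW3965 in either genotype.

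With AcLDL all 10 genes had negative log2 fold changes in LXR-positive cells, and 0 passed in limma (0.225% of 16026 genes were called). Their median was -0.37 (all genes -0.0014), edgeR called 0 and DESeq2 called H2-K1 (-0.45, adjusted p = 0.0255). In limma 8 had an unadjusted p under 0.05, but the share of all genes at that level was not taken. Levels of most of the 10 genes were correlated over the libraries, so these are not independent results. Of all genes, DESeq2 called 1.68%. Tap1 was at -0.49 ± 0.17 SE, with 827, 865 and 1009 normalized counts with vehicle and 673, 695 and 554 with AcLDL. H2-K1 was at -0.45 ± 0.12 (adjusted p = 0.155), Psmb9 at -0.44 ± 0.15, Psmb8 at -0.43 ± 0.16 and Nlrc5 at -0.38 ± 0.13 (0.278). Psmb10 was at -0.042 ± 0.22, with overlapping libraries. AcLDL libraries lay below vehicle libraries for 6 of the 10 genes (9.30% of all genes). In DKO cells 7 of 10 were negative with a median of -0.18, and 0 passed (0.125% of genes called; 1 at an unadjusted p under 0.05, 0 in edgeR and DESeq2). Of the related lists, the class I-like genes gave 1 call in LXR-positive cells, H2-T24 (-0.90 ± 0.15, adjusted p = 0.038), and 5 lower with the mouse as a block. With that block 1.54% of all genes were called. The call of H2-T24 ended without any of the 6 libraries compared.

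Across the 24 libraries the levels of H2-D1 followed the other 9 genes least. Pearson's r of log2 levels, over libraries that share mice, treatments and size factors, was highest for Psmb9 and Tap1 (0.97). Its own values ran from -0.14 with B2m to 0.57 with H2-K1. The genes outside the pathway lists whose log2 levels were most like the mean profile of the 10, among 10732 genes with a mean of at least 50 normalized counts, were Bst2 (r = 0.99), Dhx58, Gbp6 and AW112010 (0.98 each) and Isg15 (0.98). For H2-K1 alone the nearest were H2-Q4 (0.95) and H2-Q7 (0.94), and for H2-D1 mt-Tg and Gm2541 (0.91 and 0.90). The nearest to B2m were Sephs2 and Nampt (0.97 each), to Tap1 Dhx58 and Bst2 (0.98 and 0.97), and to Tap2 H2-T10 and Tmem2 (0.95 each). Tapbp was most like Acod1 (0.99), Psmb9 like Dhx58 (0.98), Psmb10 like Lgals9 (0.96) and Nlrc5 like Ifi205 (0.95).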

How the data were processed

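RNA of 24 libraries, 1 per mouse and treatment, was sequenced by the authors with single-end 50 bp reads, and libraries were made from 500 ng of RNA with a stranded total RNA kit, per the labels' protocols. The submitters' processing notes name kallisto, DESeq2 and the build GRCm38, without versions, annotation or strand setting. The authors deposited 3 tables whose per-library signal is a normalized count, that is, a gene count divided by 1 size factor per library. Whole reads came back for 100% of values within 0.01 read, and all 3 tables hold the same vehicle values. The authors' deposited log2 fold changes and p-values of the interaction were used only where the authors' tables are named, and the deposited score (the Wald statistic and the standard error) was not used for any test.

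The test was limma-trend (limma 3.58.1, R 4.3.3) on log2(value + 1), with 12 libraries and 4 group means per treatment, on genes with at least 10 normalized counts in at least 3 libraries. A fold change on this scale understates that of low genes. P-values were adjusted by Benjamini-Hochberg over all genes tested, and a call is an adjusted p under 0.05. The vehicle genotype difference came from the GW3965 fit. P-values rest on 3 mice per genotype. The fits were tested on simulated data. The alternatives were a pseudocount of 8, no filter, quantile normalization, edgeR 4.0.16 and DESeq2 1.42.0 on the recovered reads, the mouse as a replicate block, all 24 or only 6 libraries in a fit, leaving out each library, and thinned reads. On the recovered whole reads edgeR called the same number of the 10 genes as limma in all 13 comparisons.

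Libraries of 1 genotype with the same number were taken as 1 mouse, since the design text describes 6 mice under 4 treatments. Deviations of such libraries from their groups had a median correlation of 0.27 (36 library pairs, -0.0051 to 0.51, 35 of them over 0.1; 10732 genes). Ratios were compared by exact permutation tests. All 10 genes are named in each comparison, and of each other list up to 6 called genes with the largest KLA change in LXR-positive cells; the remaining names were added later and are marked. A few genes that these rules name are not reported here. The genes, lists and tests were chosen with earlier results of these data known. Promoters are RefSeq's, and exon lengths, overlaps and shared 50-base stretches come from the GENCODE annotation of GRCm38.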

Additional observations from a re-analysis of the deposited data

How the results depend on the processing

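Of 130 single-gene results for the 10 genes, 25 were called, and 2100 values under alternatives gave 36 lost calls, 11 gained calls and 0 called values of opposite sign. Signs changed in 55 values of 24 uncalled results. For the other named genes, 140 of 7980 values lost a call, 36 gained one and 0 reversed. The KLA counts of 8 and 9 genes held under every alternative setting within 1 gene, and ranged from 8 to 10 and from 8 to 9 when single libraries were left out. The genotype counts moved most: leaving out single libraries gave 0 to 4 (KLA), 0 to 3 (GW3965) and 0 to 2 (AcLDL), and no filter or only the 6 libraries compared gave 1 with GW3965. DESeq2 gave 1 in place of 0 with AcLDL in LXR-positive cells and 1 in place of 0 for the vehicle genotype difference. Of all genes, DESeq2 called 1.68% and 1.89% there, against 0.225% and 0.316% in limma. The cause was not tested. With the mouse as a replicate block the counts were 8 and 9 with KLA and 3, 3 and 2 for the genotypes with KLA, GW3965 and AcLDL, and the block changed no other call of the 10 genes. The lowest levels, those of Psmb9 and Psmb10, lay between 136 and 716 normalized counts, the range in which counting error weighs most among the 10. In the other lists the block left 6 of 8 called loading genes with KLA in DKO cells. It gave 5 in place of 1 called class I-like genes with AcLDL in LXR-positive cells. Of all genes, 1.54% were called there with the block and 0.225% without it.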
